A study of Mus musculus with 32 samples.

Results

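The transcripts of 10 genes, the E2F transcription factors E2f1 to E2f8 and the pocket proteins Rb1 and Rbl1, were followed through the first wave of spermatogenesis in the mouse. The genes were chosen by symbol, with earlier results of these data known, and each symbol was matched to its Ensembl identifier by the GENCODE annotation of GRCm38. All 10 were among the 20368 genes of the juvenile gene table, which holds genes with a TPM, the length-scaled share of a library that a transcript makes up, of at least 3 in at least 1 mouse. Germ cells were isolated from both testes of individual male C57BL/6J mice, with 3 mice at 8 days post-partum (dpp) and 5 mice at each of 10, 12, 14, 16 and 18 dpp. The paper had sampled 5 mice at 8 dpp and omitted the rest because they matched other mice of that age poorly. No mouse was treated and all were of the same strain and sex, so the juvenile groups were defined by age. The sample titles also carry index sequences and library numbers, and the library numbers rise with age and cannot be told apart from it. Over these ages meiotic cells are added to a population that starts with spermatogonia, and the question was how the RNA of each gene moved as they accumulated. A further 4 samples held pachytene and diplotene spermatocytes enriched by sedimentation from C57BL/6J males of 9 weeks, and each was a pool of 6 mice. They are called adult cells below, and they were normalized in a table of their own, so their levels are set beside the juvenile levels with no test.

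E2F factors bind DNA together with a DP partner and control genes of the G1 to S transition and of DNA replication. E2F1, E2F2 and E2F3 are the activators, E2F4 and E2F5 act mainly as repressors with the pocket proteins, E2F6 represses without a pocket protein as part of Polycomb complexes, and E2F7 and E2F8 are atypical repressors that bind DNA without a DP partner. RB1 and its relatives RBL1 (p107) and RBL2 (p130) hold E2Fs in check until cyclin-dependent kinases phosphorylate them, and in the testis this circuit acts where spermatogonia stop dividing and spermatocytes pass their last S phase before meiosis.

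Promoter sequence from RefSeq (GRCm38.p6, 250 bases before to 50 after a start) was at hand for 7 members, and it is shown because E2F genes are themselves classic E2F targets. The windows were searched on both strands for the E2F site variants TTTCGCGC, TTTGGCGC, TTTCCCGC and TTTGCCGC, and for the cell cycle homology region TTTGAA, through which MuvB complexes bind. These motifs do not overlap each other. An E2F match was present in 2.26% of 32851 promoters and a TTTGAA match in 17.9%. Among the members, Rbl1, E2f2, E2f3 and E2f7 held an E2F match, and E2f2, E2f3 and E2f8 held TTTGAA. Members are counted by gene, with a match in any of their promoters, while the percentages are by promoter. The E2F and TTTGAA matches of E2f2 lay in different promoters. The 150 bases before the start of Rbl1 (chr2:157204535-157204684, minus strand) and of E2f8 (chr7:48881597-48881746, minus strand) are printed 5′ to 3′ because these genes showed the largest rises, with the matches in capitals.
Rbl1: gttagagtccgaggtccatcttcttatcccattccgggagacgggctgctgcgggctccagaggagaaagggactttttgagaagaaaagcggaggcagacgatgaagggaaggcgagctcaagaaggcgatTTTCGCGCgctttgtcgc
E2f8: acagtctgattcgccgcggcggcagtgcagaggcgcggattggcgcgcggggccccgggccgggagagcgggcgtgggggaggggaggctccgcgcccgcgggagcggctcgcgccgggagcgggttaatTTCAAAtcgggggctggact
The other E2F matches, in windows of 30 bases, lay in genes that behaved differently from Rbl1 (chr4:136172294-136172323, plus strand, for E2f2, chr13:29986056-29986085, minus strand, for E2f3, and chr10:110745230-110745259, plus strand, for E2f7).
E2f2: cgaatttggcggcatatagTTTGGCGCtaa
E2f3: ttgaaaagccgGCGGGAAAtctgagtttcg
E2f7: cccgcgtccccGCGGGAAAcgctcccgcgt
The match began 18 bases before the start in Rbl1, 11 before it in E2f3 and 198 before it in E2f7, and at base 40 after it in E2f2. In E2f8 the TTTGAA match, printed as its reverse complement, began 20 bases before the start. E2f1, an activator, and E2f6 held neither motif in these letters. The match is a property of the sequence only, and genes that hold it are found below among those that rose, those that fell and those that passed no threshold from 8 to 18 dpp.

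From 8 to 18 dpp the family moved in opposite directions. The activators E2f1, E2f2 and E2f3, the repressor E2f5 and the Polycomb-linked E2f6 fell, while Rbl1, E2f8 and E2f4 rose. E2f7 and Rb1 did not pass the threshold. In all, 8 of 10 members differed among the 6 ages (limma on log2(TPM + 1), adjusted p under 0.05 over all genes), against 77.6% of all genes. Between 18 and 8 dpp, 8 of 10 passed, against 68.2% of all genes. Of these, 3 were higher and 5 were lower, against 31.8% and 36.3% of all genes in the same comparison, in which most genes changed. The mice of the 2 ages did not overlap for 7 members, against 61.0% of all genes. The median log2 difference was -0.27 over the members and -0.09 over all genes. Each sample is a mixture of cells, and fewer cells of a type and less RNA per cell cannot be told apart in it.

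**Figure D1:**
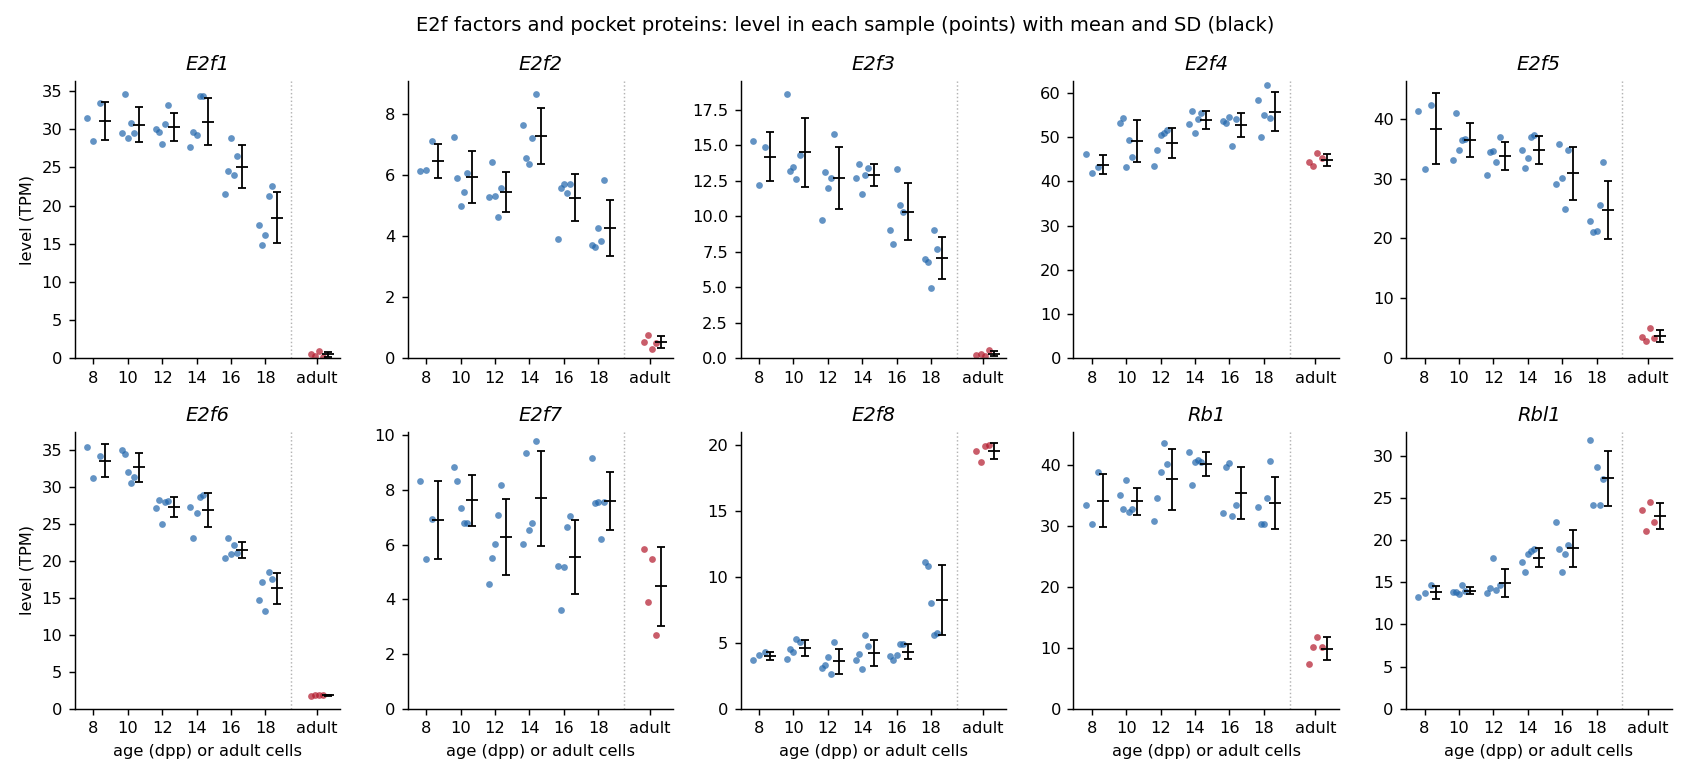
Level of each member in every sample, in TPM on a linear axis from 0, by age in dpp, with the 4 adult samples in red beyond the dotted line since they were normalized separately. Black bars give the mean and SD. E2f1 falls from 31.1 TPM at 8 dpp to 18.4 at 18 dpp and lies under 1 TPM in adult cells, while E2f8 lies between 2.61 and 5.59 TPM up to 16 dpp and between 18.7 and 20.0 in adult cells.

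The labelled cell type was checked with marker genes. All 6 germ cell markers reached 3 TPM at every age and in adult cells, and their summed level was 693 to 883 TPM at 8 dpp and 1810 to 2133 at 18 dpp. The means of Mael (161 to 702 TPM), Sycp3 (136 to 502) and Ddx4 (127 to 385) rose between these ages. Dazl was at 319 and 331 TPM, Tex14 at 46.8 and 52.5, and Dnd1 fell from 31.0 to 14.6. In adult cells Dazl was at 30.9 and Dnd1 at 5.00 TPM. Mael is also one of the E2F6 germline targets counted below. Markers of spermatogonia (6 genes) summed to between 408 and 442 TPM at 8 dpp, between 162 and 216 at 18 dpp and between 6.76 and 8.68 in adult cells. Sertoli cell markers (8 genes) ran from 1834 to 2038 TPM at 8 dpp, from 688 to 964 at 18 dpp and from 42.3 to 67.8 in adult cells. Juvenile sums were 524 to 1879 TPM for peritubular cells, 168 to 472 for Leydig cells, 170 to 681 for red blood cells, 26.1 to 120 for macrophages and 31.8 to 94.6 for endothelial cells. In adult cells these sums were 5.57 to 10.7, 206 to 270, 5.38 to 8.59, 3.32 to 4.35 and 1.43 to 3.09 TPM. Most of the adult Leydig sum was Insl3, with a mean of 176 TPM against 112 at 18 dpp. Every other Leydig marker had a lower mean in adult cells than at 18 dpp, such as Hsd3b1 (7.58 against 60.0 TPM). Round spermatid markers (6 genes) summed to at most 24.3 TPM in any juvenile mouse, with Prm1 and Prm2 at 0 from 10 to 16 dpp, and to between 716 and 975 TPM in adult cells. At 18 dpp mice 1 to 3 had spermatogonium sums of 162 to 166 TPM and mice 4 and 5 sums of 211 to 216, and their Sertoli sums were 688 to 717 and 916 to 964. The part of these other cells in the values that follow was not tested. Depth could not be given, since TPM keeps no read counts.

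The activators passed no threshold in any step before 14 dpp and were lower at 18 dpp than at 8 dpp. E2f1 (ENSMUSG00000027490, chr2:154559407-154569892), which drives S phase genes and can also promote apoptosis, was at 31.5, 28.5 and 33.4 TPM in the 3 mice of 8 dpp and at 27.7 to 34.6 TPM in every mouse of 10, 12 and 14 dpp. At 16 dpp it was at 21.5, 24.5, 28.9, 24.0 and 26.5 TPM, and at 18 dpp at 17.5, 14.8, 16.1, 21.3 and 22.5 TPM. The mice of 18 dpp thus lay wholly below those of 8 dpp and overlapped those of 16 dpp in 1 mouse. The log2 difference between 18 and 8 dpp was -0.74 ± 0.111 (SE, adjusted p = 1.43e-06). Mice 1 to 3 of 18 dpp lay below mice 4 and 5, the same division that the spermatogonium and Sertoli sums show. E2f3, E2f5, E2f6 and Rb1 were divided in the same order at 18 dpp, while for E2f2 the mice overlapped. In adult cells E2f1 was at 0.560, 0.310, 0.910 and 0.210 TPM.

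E2f2 (ENSMUSG00000018983, chr4:136172394-136196057) was the least abundant activator, at 6.14, 6.15 and 7.11 TPM at 8 dpp and at 3.72, 3.65, 4.25, 3.83 and 5.84 TPM at 18 dpp. The ages did not overlap, and the log2 difference was -0.52 ± 0.139 (adjusted p = 0.00179). Its highest mean was at 14 dpp, 7.28 ± 0.926 TPM (SD, n = 5), and the step up from 12 dpp did not pass the threshold (log2 difference 0.36, adjusted p = 0.269). E2f3 (ENSMUSG00000016477, chr13:29906575-29986063), which supports proliferation in many tissues, was at 15.3, 12.2 and 14.9 TPM at 8 dpp and at 7.00, 6.75, 4.95, 9.00 and 7.71 TPM at 18 dpp. Every mouse of 18 dpp lay below every mouse of 8 dpp, with a log2 difference of -0.92 ± 0.156 (adjusted p = 8.43e-06). In adult cells E2f2 ranged from 0.310 to 0.770 TPM and E2f3 from 0.150 to 0.590 TPM, both below 1 TPM in all 4 samples. The antisense Gm11365 at E2f3 reached at most 0.440 TPM.

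The repressors E2f4 and E2f5, which are close relatives, moved apart. E2f4 (ENSMUSG00000014859, chr8:105297663-105305370) had the highest mean of the 10 genes at every age and in adult cells, and TPM is scaled for transcript length. It was at 46.2, 42.0 and 43.2 TPM at 8 dpp, at 58.3, 50.0, 55.0, 61.7 and 54.3 TPM at 18 dpp, and at 44.3, 43.4, 46.4 and 45.4 TPM in adult cells. The mice of 18 dpp all lay above those of 8 dpp, by a log2 difference of 0.34 ± 0.0757 (adjusted p = 0.000272), and no single 2-day step passed the threshold. With median-of-ratios scaling the step from 16 to 18 dpp did pass. E2f5 (ENSMUSG00000027552, chr3:14578641-14606309) was at 41.2, 31.6 and 42.3 TPM at 8 dpp and at 22.9, 21.0, 21.2, 25.5 and 32.8 TPM at 18 dpp. It fell by 0.62 on the log2 scale (SE 0.122, adjusted p = 6.30e-05), although mouse 5 of 18 dpp lay above the lowest mouse of 8 dpp. In adult cells E2f5 ranged from 2.82 to 5.06 TPM. At 8 dpp the ranges of E2f4 and E2f5 overlapped, with means of 43.8 and 38.3 TPM, whereas at 18 dpp the means were 55.8 and 24.7 TPM with no overlap. The opposite-strand neighbour of E2f5, 1810022K09Rik, was measured at 7.74 to 20.9 TPM, and reads of the 2 genes cannot be told apart where they overlap if the libraries were not stranded.

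E2f6 (ENSMUSG00000057469, chr12:16810963-16839742) showed the largest fall of the 10 genes between 8 and 18 dpp, except with quantile normalization, where E2f3 was lower (log2 differences -1.10 and -1.12). E2F6 is the family member that lacks a pocket protein binding domain and works in the PRC1.6 Polycomb complex, which keeps germline genes silent in other cells. It was at 35.5, 31.2 and 34.2 TPM at 8 dpp and at 35.1, 34.5, 32.1, 30.6 and 31.4 TPM at 10 dpp, then at 25.0 to 28.3 TPM at 12 dpp. It was at 23.1 to 28.9 TPM at 14 dpp and at 20.4 to 23.1 TPM at 16 dpp, and reached 14.7, 17.2, 13.3, 18.5 and 17.6 TPM at 18 dpp. The mean was lower at each successive age, and the mice of 10 and 12 dpp, and of 16 and 18 dpp, did not overlap. The log2 difference between 18 and 8 dpp was -1.01 ± 0.0887 (adjusted p = 1.10e-10). In adult cells E2f6 was at 1.76, 1.89, 1.86 and 1.87 TPM (SD 0.0580), below every juvenile mouse.

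The atypical repressors differed from each other. E2f8 (ENSMUSG00000046179, chr7:48866429-48881596) was low up to 16 dpp, with means of 3.59 to 4.59 TPM, and was at 3.68, 4.05 and 4.28 TPM at 8 dpp. At 18 dpp it was at 11.1, 10.8, 8.03, 5.61 and 5.71 TPM, above every mouse of the earlier ages, although the lowest was only just above the highest earlier mouse (5.59 TPM). The log2 difference from 8 dpp was 0.84 ± 0.193 (adjusted p = 0.000401). Mice 1 to 3 of 18 dpp were above mice 4 and 5, the reverse of the order seen for E2f1. With mice 1 to 3 of each age alone, the log2 difference of E2f8 was 1.12. In adult cells E2f8 was at 19.5, 18.7, 19.9 and 20.0 TPM, the only member whose adult mean lay above every age mean. E2f7 (ENSMUSG00000020185, chr10:110745439-110787384), its partner in endocycles and placental development, ranged from 3.63 to 9.78 TPM over all mice. It was at 8.32, 5.47 and 6.93 TPM at 8 dpp and at 9.18, 7.53, 7.57, 6.20 and 7.55 TPM at 18 dpp, and these ages overlapped (log2 difference 0.13 ± 0.181, adjusted p = 0.539). In adult cells E2f7 was at 5.83, 3.91, 5.47 and 2.71 TPM. Gm2788, which overlaps E2f8 on the other strand, reached at most 1.21 TPM.

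The pocket proteins also parted. Rbl1 (ENSMUSG00000027641, chr2:157145893-157204534) encodes p107, which pairs mainly with E2F4 and E2F5, and on the log2(TPM + 1) scale it showed the largest rise among the members. As a ratio of mean TPM, 18 dpp over 8 dpp, Rbl1 was at 1.97 and E2f8 at 2.06, and E2f8 was also ahead with mice 1 to 3 alone. It was at 13.2, 13.7 and 14.7 TPM at 8 dpp and at 13.6 to 14.7 TPM at 10 dpp, at 16.2 to 18.9 TPM at 14 dpp and at 22.1, 18.9, 16.2, 18.4 and 19.4 TPM at 16 dpp. At 18 dpp it was at 31.9, 24.2, 28.7, 24.2 and 27.2 TPM, and no mouse of this age overlapped any younger mouse. The log2 difference between 18 and 8 dpp was 0.92 ± 0.0965 (adjusted p = 3.03e-09). In adult cells Rbl1 was at 23.6, 21.1, 24.5 and 22.1 TPM. Rb1 (ENSMUSG00000022105, chr14:73183673-73325822), the retinoblastoma protein, was at 33.5, 30.3 and 38.9 TPM at 8 dpp and at 33.1, 30.3, 30.3, 34.6 and 40.7 TPM at 18 dpp. These gene totals overlapped almost entirely, with a log2 difference of -0.02 ± 0.108 (adjusted p = 0.883), and the highest mean was 40.2 ± 2.03 TPM at 14 dpp. In adult cells Rb1 was at 7.28, 10.2, 11.8 and 10.1 TPM, below every juvenile mouse. Rb1 holds Lpar6 on its opposite strand, which was at 2.00 to 7.48 TPM, and overlaps the opposite-strand Rcbtb2, which was at 24.0 to 71.8 TPM with means of 31.5 at 16 dpp and 56.3 at 18 dpp. Overlapping reads of these genes could be assigned to either without strand information.

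The transcripts that made up Rbl1 also changed in proportion. The protein-coding transcript Rbl1-201 (22 exons, 4862 bases) rose as a share of Rbl1 RNA, and Rbl1-202, which is annotated as a retained intron and is no coding transcript (13 exons, 2383 bases), fell. Rbl1-201 was at 6.25, 7.13 and 7.61 TPM at 8 dpp and at 25.8, 22.4, 24.4, 20.4 and 21.9 TPM at 18 dpp, while Rbl1-202 was at 6.95, 5.87 and 6.53 TPM and then at 3.13, 1.78, 4.36, 1.85 and 4.51 TPM. The 2 transcripts were thus about equal at 8 dpp and clearly apart at 18 dpp. As a share of Rbl1 TPM, Rbl1-201 made up 56.5% ± 7.05 (SD) over the 8 mice of 8 and 10 dpp, at 47.3 to 66.4%, and 83.6% ± 4.59 over the 10 mice of 16 and 18 dpp, at 77.4 to 92.6%. Rbl1-202 made up 42.3% ± 6.67 and 13.9% ± 5.06, with no overlap between the early and late mice for either transcript. The differences were 27.1 ± 2.68 points (SE, adjusted p = 3.60e-06) and -28.4 ± 2.69 points (adjusted p = 2.34e-06) in limma on percentages. These were the 2 member transcripts called of 13 tested, which came from 6 genes, against 2.11% of 26345 transcripts tested. Both are shares of Rbl1 and together make up nearly all of it, so the 2 calls describe the same shift. The shift was already present at 12 dpp, when Rbl1-201 made up between 74.5 and 78.1%, and 14 dpp was the widest age, at 60.1 to 80.1%.

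**Figure D2:**
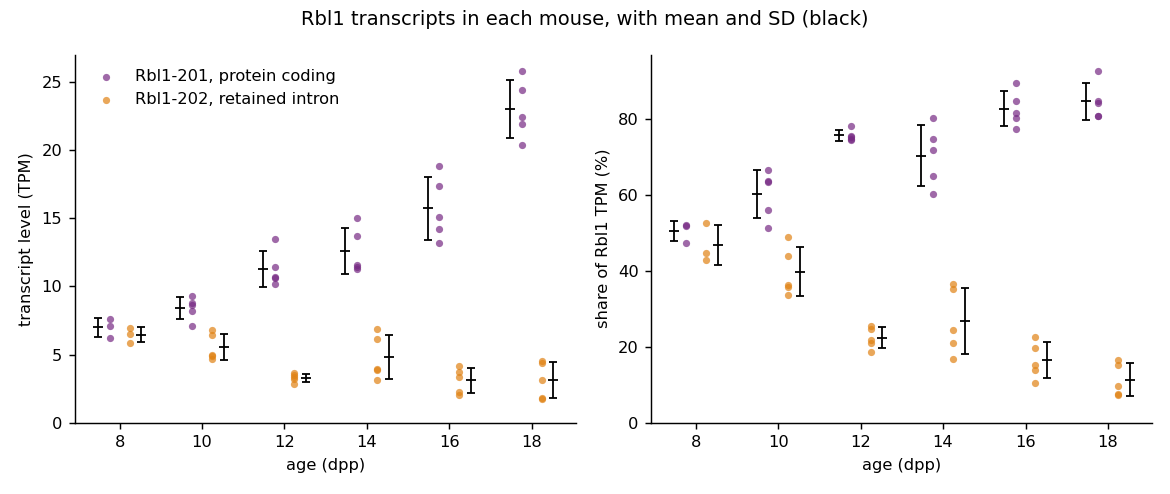
Level in TPM (left) and share of the gene's TPM in percent (right) of the 2 main Rbl1 transcripts in each juvenile mouse, by age in dpp, with mean and SD in black. Rbl1-201 climbs from between 6.25 and 7.61 TPM at 8 dpp to between 20.4 and 25.8 at 18 dpp, while Rbl1-202 stays at or under 6.95 TPM throughout.

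In all, 19 of the 33 member transcripts in the transcript table had a mean of at least 1 TPM at some age. For E2f4 and E2f6 the table holds 1 transcript each, E2f4-201 and E2f6-201, so it shows nothing of their usage. E2f5 and E2f2 had 1 transcript at that level of 2 in the table, E2f5-201 and E2f2-201, both protein coding. E2f1 was split between the coding transcripts E2f1-201 and E2f1-202, at 43.1 and 56.9% early and 37.3 and 62.7% late (adjusted p = 0.356). Rb1-201, the full coding transcript with 27 exons, held 86.1% ± 3.94 of Rb1 TPM early and 83.9% ± 7.42 late, and the rest lay in the short non-coding Rb1-202, Rb1-204 and Rb1-206. The 2 late ages differed, with Rb1-201 at a mean of 89.6% at 16 dpp and of 78.3% at 18 dpp, where its 75.8 to 82.7% lay below the 83.7 to 90.8% of 8 dpp. Rb1-202 was at 0.418 to 10.3% at 8 dpp and at 13.1 to 20.7% at 18 dpp, with no overlap, and was not called in the test over pooled ages (adjusted p = 0.430). In TPM, Rb1-201 had means of 30.1 at 8 dpp, 31.6 at 16 dpp and 26.4 at 18 dpp. Its mice of 8 and 18 dpp overlapped, at 27.5 to 32.5 and 23.8 to 30.8 TPM. Rb1-202 had means of 1.57 TPM at 8 dpp and 5.53 at 18 dpp, and these transcript levels were not tested. E2f3-201 held 92.2% early and 96.4% late, with the remainder in E2f3-202. E2f7-201 held 65.4% and 73.7%, beside E2f7-203 and E2f7-204. E2f8-202 held 41.7% ± 33.8 of E2f8 TPM early and 60.0% ± 29.6 late, and E2f8-201 the larger part of the remainder. The difference of 18.3 points for E2f8-202 was under the 20 points required and did not pass (SE 14.4, adjusted p = 0.466), and its share ran from 0 to 100% among the early mice. E2f8-201 moved by -21.1 points, past the size required, and was not called either (limma, SE 14.9, adjusted p = 0.407). At 18 dpp E2f8-202 was nevertheless at 10.9, 8.26, 7.25, 3.92 and 1.63 TPM, and E2f8-201 was at 0, 0, 0.790, 1.69 and 4.08 TPM in the same mice, in opposite order.

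By 2-day steps, the number of members that passed followed the share of all genes that did. From 8 to 10 dpp, 0 members passed, against 1.20% of all genes, and 1 member had an unadjusted p under 0.05 (E2f4, limma). From 10 to 12 dpp only E2f6 passed, lower by 0.25 on the log2 scale, against 21.4% of all genes in either direction and 9.39% lower. The log2 difference of E2f6 was -0.25 ± 0.0768 (adjusted p = 0.0189), and the call was lost without mouse 1 of 10 dpp (adjusted p = 0.0559) or mouse 3 of 12 dpp (adjusted p = 0.0580). From 12 to 14 dpp 0 members passed, against 0.172% of all genes, and 3 had an unadjusted p under 0.05 in limma (E2f2, E2f4 and Rbl1). The index sequences in the labels of 8 to 12 dpp occur again at 14 to 18 dpp, and this step, with the fewest calls over all genes, is the one between them.

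From 14 to 16 dpp E2f1, E2f2 and E2f6 fell, 3 of 10 members against 24.0% of all genes and 11.3% lower. The log2 differences were -0.30 for E2f1 (adjusted p = 0.0247), -0.41 for E2f2 (adjusted p = 0.0147) and -0.31 for E2f6 (adjusted p = 0.00453). Without mouse 1 of 16 dpp, the lowest mouse of that age for each of the 3 genes, 1 member passed, since E2f1 (adjusted p = 0.0893) and E2f2 (adjusted p = 0.0648) were lost. E2f1 was also lost without mouse 6 or mouse 7 of 14 dpp (adjusted p = 0.0678 and 0.0694) and without the filter on low genes (adjusted p = 0.0637). With mice 1 to 3 of each age alone all 3 calls were lost (adjusted p = 0.164 for E2f1, 0.0802 for E2f2 and 0.0775 for E2f6), and E2f7 alone passed. From 16 to 18 dpp 7 of 10 members passed, against 54.0% of all genes. E2f1, E2f3, E2f5 and E2f6 fell, 4 members against 30.6% of all genes, with log2 differences of -0.43, -0.48, -0.32 and -0.39 (adjusted p = 0.000470, 0.00374, 0.0124 and 0.000137). Rbl1, E2f8 and E2f7 rose, 3 members against 23.4%, with log2 differences of 0.50, 0.76 and 0.41 (adjusted p = 2.51e-05, 0.000473 and 0.0284). The call of E2f7, which was at 5.22, 3.63, 5.17, 6.66 and 7.05 TPM at 16 dpp, was lost without mouse 2 of 16 dpp (adjusted p = 0.115), mouse 3 of 16 dpp (0.0535) or mouse 1 of 18 dpp (0.0837). It was also lost without the filter on low genes (adjusted p = 0.0658). E2f5 was lost with median-of-ratios scaling (log2 difference -0.16). With only the 2 ages in the model 5 members passed, since E2f5 (adjusted p = 0.0787) and E2f7 (adjusted p = 0.0585) were lost.

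**Figure D3:**
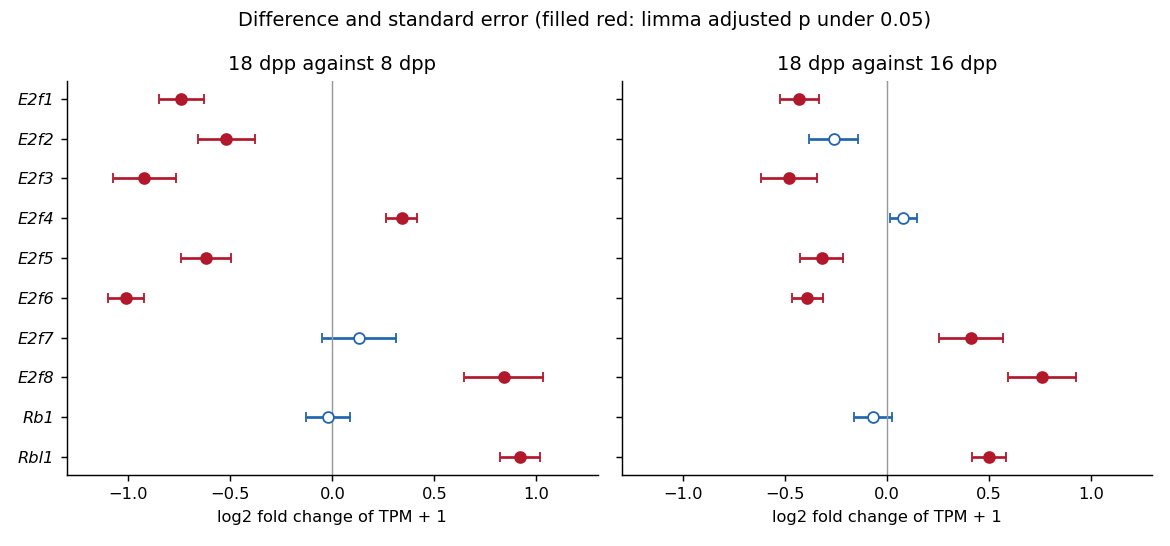
Log2 fold change of TPM + 1 (points) with its standard error (bars) for each member, between 18 and 8 dpp on the left and between 18 and 16 dpp on the right. Filled red points passed the limma threshold, 8 on the left and 7 on the right. E2f6 lies lowest on the left at -1.01 and Rbl1 highest at 0.92.

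The balance among the members changed with age, which follows from the levels above and is given as a description. The 8 E2f genes summed to 178 ± 15.1 TPM at 8 dpp, 142 ± 11.0 at 18 dpp and 75.7 ± 3.34 in adult cells. The activators made up 29.0% ± 0.773 of this sum at 8 dpp, 20.8% ± 2.00 at 18 dpp and 1.77% ± 0.0952 in adult cells. E2f4 alone made up 24.6% ± 1.44 at 8 dpp, 39.3% ± 2.69 at 18 dpp and 59.3% ± 1.45 in adult cells. The atypical pair held 6.10% at 8 dpp, 11.3% at 18 dpp and 31.6% in adult cells, so that E2f4, E2f7 and E2f8 carried most of the E2f RNA of the adult cells. E2f6 went from 18.9% to 11.4% and 2.44%. Of the summed RNA of the 3 pocket proteins, Rbl1 made up 18.9% ± 0.106 at 8 dpp, 33.7% ± 4.05 at 18 dpp and 45.4% ± 4.52 in adult cells, and Rb1 46.6% ± 4.07, 41.6% ± 2.62 and 19.4% ± 2.78.

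**Figure D4:**
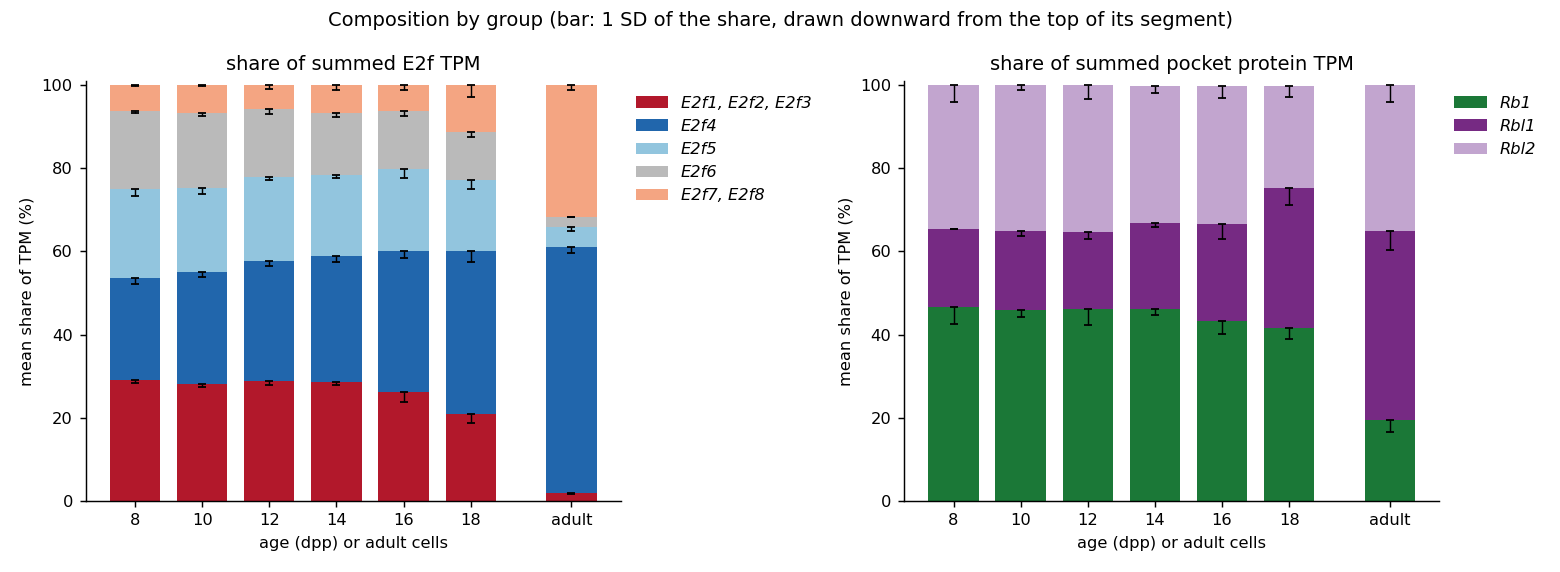
Mean share of the summed TPM of the 8 E2f genes (left) and of Rb1, Rbl1 and Rbl2 (right), in percent from 0, by age in dpp and in adult cells, with the SD over samples drawn downward from the top of each segment. The activator segment shrinks from 29.0% at 8 dpp to 1.77% in adult cells, and the Rbl1 segment grows from 18.9% to 45.4%.

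In adult cells 6 of the 10 members had a mean of at least 3 TPM, beside 59.8% of the genes of the juvenile table. They were, from high to low, E2f4 (44.9 ± 1.31 TPM, SD, n = 4), Rbl1 (22.8 ± 1.53), E2f8 (19.5 ± 0.599), Rb1 (9.85 ± 1.88), E2f7 (4.48 ± 1.44) and E2f5 (3.71 ± 0.955). Neighbours in this order did not overlap except E2f7 and E2f5. E2f6 followed at 1.84 ± 0.0580 TPM, and E2f2, E2f1 and E2f3 were lowest, at 0.528, 0.498 and 0.318 TPM, with overlapping samples. At 18 dpp the order was E2f4, Rb1, Rbl1, E2f5, E2f1, E2f6, E2f8, E2f7, E2f3 and E2f2, and only E2f4 against Rb1 and E2f6 against E2f8 were free of overlap between neighbours. The adult cells carried round spermatid markers that the juvenile cells nearly lacked, and their part in the adult levels was not tested.

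Among the partners of the members, Tfdp2 and Rbl2 fell and Tfdp1 rose. Tfdp1, which encodes the DP1 subunit, was at 107, 90.8 and 108 TPM at 8 dpp, at 121, 138, 120, 131 and 116 TPM at 18 dpp and at 114 to 122 TPM in adult cells, and it rose with a log2 difference of 0.29 (adjusted p = 0.000333). Tfdp2, which encodes DP2, was at 41.5, 36.9 and 37.9 TPM at 8 dpp, at 18.2, 17.9, 18.4, 20.6 and 23.8 TPM at 18 dpp and at 1.52 to 2.38 TPM in adult cells. It fell with a log2 difference of -0.94 (adjusted p = 4.63e-10). Rbl2, the third pocket protein, was at 23.3, 28.1 and 24.4 TPM and then at 18.3, 21.8, 16.8, 20.6 and 22.0 TPM, lower at 18 dpp with a log2 difference of -0.33 (adjusted p = 0.00443). The call of Rbl2 was lost with median-of-ratios scaling (log2 difference -0.16, adjusted p = 0.153).

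Of the 7 subunits of the MuvB and MYB complexes, through which pocket proteins and MYB factors act on cell cycle genes, 3 rose and 1 fell between 8 and 18 dpp, beside 31.8% of all genes higher and 36.3% lower. Their median log2 difference was 0.21 against -0.09 over all genes, and it was 0.38 with median-of-ratios scaling and 0.12 with quantile normalization. The MYB factors moved in opposite directions. Mybl1, the A-MYB of pachytene spermatocytes, rose from 12.2 ± 0.546 to 47.7 ± 7.64 TPM (adjusted p = 5.61e-12), and Mybl2, the B-MYB of dividing cells, fell from 26.8 ± 1.06 to 12.6 ± 1.64 TPM (adjusted p = 4.64e-09). The core subunit Lin52 rose from 10.7 to 25.4 TPM (adjusted p = 4.17e-10). Of the 14 cyclins, kinases and inhibitors that act on pocket proteins, 6 rose and 8 fell, beside the same shares of all genes, with a median of -0.57. The D-type cyclin Ccnd2 fell from 86.8 ± 3.36 to 20.8 ± 4.24 TPM (adjusted p = 1.38e-14) and its kinase Cdk6 from 11.7 to 4.75 TPM (adjusted p = 1.24e-08). The INK4 inhibitors of these kinases moved in both directions. Cdkn2c rose from 17.3 ± 1.49 to 85.9 ± 26.7 TPM (adjusted p = 1.86e-10) and Cdkn2d from 30.8 ± 3.13 to 116 ± 21.1 TPM (adjusted p = 4.86e-13), while Cdkn2a, which was named after its values were seen and also encodes ARF, fell from 63.4 ± 3.21 to 33.4 ± 6.05 TPM (adjusted p = 2.67e-07).

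Of 20 classic S phase targets of E2F, 5 rose, 11 fell and 4 did not pass, beside 31.8% of all genes higher and 36.3% lower. Their median log2 difference was -0.34 against -0.09 over all genes. With median-of-ratios scaling it was -0.17 with 9 lower, and with quantile normalization -0.45 with 14 lower. The replication licensing gene Mcm2 fell from 117 ± 7.26 to 54.0 ± 8.08 TPM (adjusted p = 3.37e-11) and the thymidylate synthase Tyms from 34.7 ± 3.59 to 15.8 ± 4.87 TPM (adjusted p = 1.49e-06), to 1.33 and 0.450 TPM in adult cells. In the other direction, Gins1 of the replicative helicase rose from 20.0 ± 2.92 to 52.1 ± 6.89 TPM (adjusted p = 3.83e-08) and the Polycomb methyltransferase Ezh2 from 30.9 ± 0.779 to 77.2 ± 3.26 TPM (adjusted p = 1.39e-12), so targets did not move as a block. These 2 genes were at 62.6 and 80.1 TPM in adult cells. The 12 PRC1.6 subunits were split, with 4 higher, 6 lower and 2 not called, beside the same shares of all genes. Their median of -0.15 became 0.02 with median-of-ratios scaling, where 4 were higher and 4 lower. With quantile normalization it was -0.23, with 4 higher and 7 lower. Pcgf6, which defines this complex, rose from 20.0 ± 1.65 to 83.3 ± 9.64 TPM (adjusted p = 1.20e-12) and L3mbtl2 from 32.0 to 64.4 TPM (adjusted p = 2.11e-10), while the heterochromatin protein gene Cbx3 fell from 206 to 121 TPM (adjusted p = 1.86e-10) and Yaf2, a relative of Rybp, from 47.7 to 29.0 TPM (adjusted p = 2.46e-06). All 7 germline genes listed as targets of E2F6 or its complex rose, with a median of 1.82, against 31.8% of all genes higher. Hormad1, of the meiotic chromosome axis, rose from 58.7 ± 14.4 to 291 ± 22.5 TPM (adjusted p = 8.57e-12) and the testis tubulin Tuba3b from 278 ± 23.9 to 1677 ± 287 TPM (adjusted p = 5.57e-14). Tuba3b shares nearly all its coding sequence with Tuba3a, so the division of reads between them is uncertain. Many of these genes are spermatocyte genes in their own right, and whether the level of E2f6 bears on them was not tested.

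**Figure D5:**
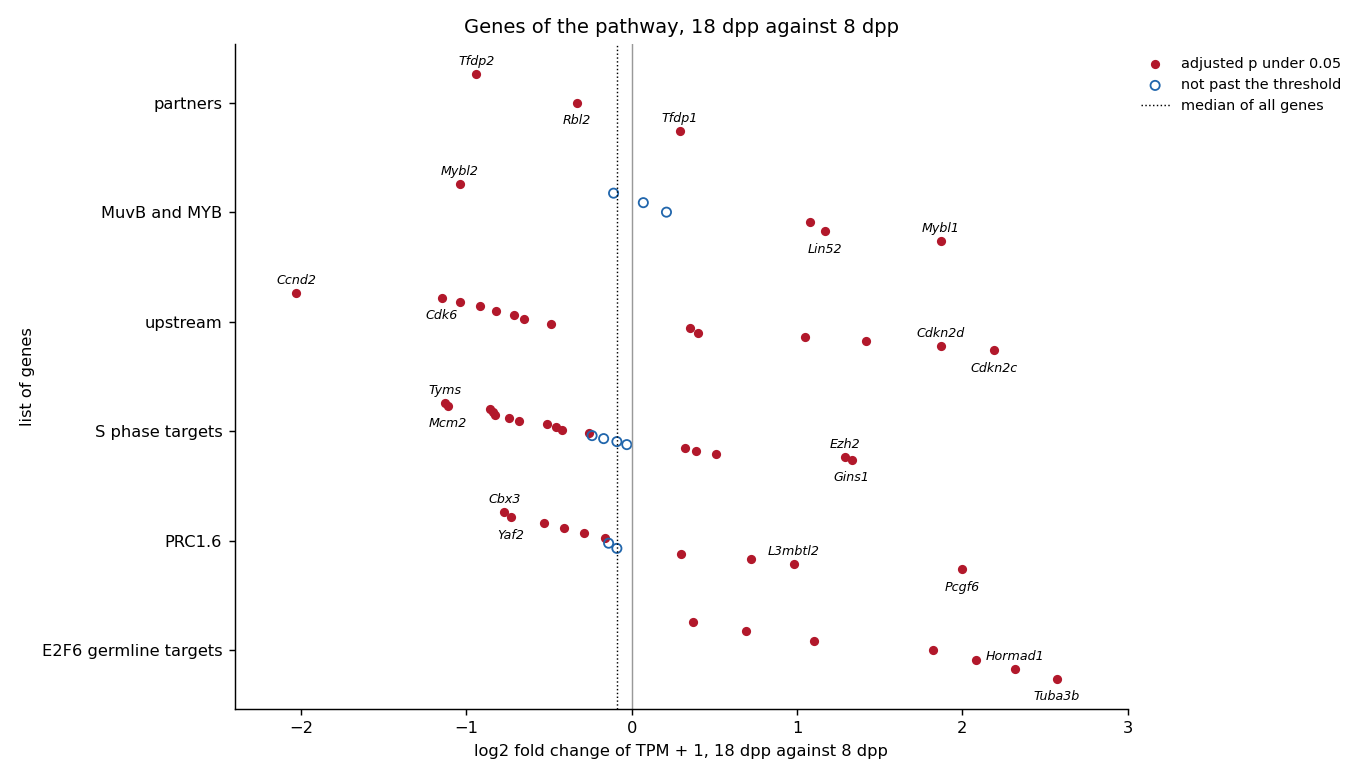
Log2 fold change of TPM + 1 between 18 and 8 dpp for each gene of 6 lists, red where the limma adjusted p was under 0.05 and open blue where it was not, with the median of all genes (-0.09) as a dotted line. The 7 germline targets of E2F6 all lie to the right, and 11 of the 20 S phase targets are red points to the left.

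The genes whose pattern was most like that of the extreme members were found by Pearson's r of log2(TPM + 1) over the 28 mice, among 13659 protein-coding genes. For Rbl1 these were Atl1, Atxn2l, Sh2b3, Agtpbp1 and Kntc1, with r from 0.950 to 0.951. Kntc1, a kinetochore gene of the spindle checkpoint, had levels near those of Rbl1, with 14.4 ± 1.66 TPM at 8 dpp, 27.5 ± 1.88 at 18 dpp and 23.0 in adult cells. The endoplasmic reticulum gene Atl1 went from 8.52 to 36.3 TPM and Agtpbp1, a tubulin deglutamylase, from 19.3 to 79.3 TPM. For E2f6 they were Dmrt1, Cbx3, Kif1c, Gga2 and Hsp90ab1, with r from 0.967 to 0.973. Dmrt1, which keeps spermatogonia from entering meiosis, was at 258 ± 7.45 TPM at 8 dpp, 107 ± 17.2 at 18 dpp and 3.29 in adult cells, and Cbx3 is the PRC1.6 subunit already named. These mice share their ages, so the coefficients describe a common course over the 6 ages and carry no p-value.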

How the data were processed

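The authors made poly-A libraries and sequenced paired-end reads of 100 bp on 2 lanes. Bowtie 1.0.0 placed the reads on transcripts of Ensembl release 75, of NONCODE 4 and of piRNA precursors (mm10), and RSEM 1.2.8 estimated TPM. Whether the libraries were stranded is not given in the sources used here. The 2 kinds of deposited values used were TPM for juvenile transcripts and adult genes, and for juvenile genes a score equal to exp(log2(TPM + 1)) - 1, which was turned back into TPM. The resulting TPM lay within 0.2 of the summed transcripts for 20288 of 20368 genes and within 0.0100 for the 10 members. Depth and counting error are unknown, since TPM keeps no read counts.

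Differences between ages were tested on log2(TPM + 1) by limma 3.58.1 (R 4.3.3), in 1 model of the 6 ages with a mean-dependent prior variance, and p-values were adjusted by Benjamini-Hochberg over 20368 genes. A fold change on this scale understates the change of low genes. Usage, the percentage of a gene's TPM held by a transcript, was also tested by limma, with the mice of 16 and 18 dpp against those of 8 and 10 dpp, for genes whose mean reached 3 TPM in both. A transcript was called at an adjusted p under 0.05 if it moved by 20 points or more. On simulated data the first test recovered 164 of 200 genes changed by 1 on the log2 scale among 20368 (18 against 8 dpp), with 9 other calls, and the usage test 183 of 200 transcripts shifted by 30 points among 26342, with 1 other call. In the first simulation genes were independent, and only those 200, with a mean log2(TPM + 1) over 1, changed, at 18 dpp alone. It therefore does not give the recovery of smaller differences, or the false calls where most genes change, as in these data. Each mouse was a sample. Summaries used Python 3.11.15 with pandas 2.3.3.

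The members, pathway lists (partners, MuvB and MYB, upstream regulators, S phase targets, PRC1.6, E2F6 germline targets), marker lists and tests were chosen with earlier results of these data known. All members and partners are named. From each other list the 2 largest rises and 2 largest falls past the threshold between 8 and 18 dpp are named, with the 5 protein-coding genes most like the member of largest rise and of largest fall, and every member transcript with a mean of at least 1 TPM at some age. Alternatives were the pseudocount, the filter, transcript sums, 2 scalings, the prior variance, the ages and mice in the model, the usage thresholds and leaving out each sample. Cytology of these mice was not used here.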

Additional observations from a re-analysis of the deposited data

Results flagged for a closer look

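Among the values of the 10 members in the 5 ages with 5 mice and in the adult cells, single samples stood apart from the rest of their group in 5 of 60 groups by Dixon's criterion, which chance reaches in about 1 in 20. E2f2 was at 3.91 TPM in mouse 1 of 16 dpp, against 5.42 to 5.72 in the other mice, and at 5.84 TPM in mouse 5 of 18 dpp, against 3.65 to 4.25. E2f3 was at 18.6 TPM in mouse 1 of 10 dpp, against 12.6 to 14.3. E2f4 was at 47.9 TPM in mouse 4 of 16 dpp, against 53.3 to 54.6. Rbl1 was at 17.9 TPM in mouse 3 of 12 dpp, against 13.7 to 14.7.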

How the results depend on the processing

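Of the alternatives to the counts of changed members, of changed transcripts and of members at 3 TPM in adult cells, 300 values lay within 1.5 times the reported ones and 7 did not. Many of the 300 left out a mouse of an age outside the comparison, which alters only the shared spread, so their number does not measure stability. A count within 1.5 times can also hide lost calls, as with the 5 members from 16 to 18 dpp when only the 2 ages were modelled. With mice 1 to 3 alone, 2 members passed from 10 to 12 dpp (E2f6 and E2f7) and 1 from 14 to 16 dpp (E2f7), and quantile normalization gave 5 from 14 to 16 dpp. Leaving out each mouse in turn gave 0 to 1 members from 10 to 12 dpp, 1 to 4 from 14 to 16 dpp, 6 to 8 from 16 to 18 dpp, 8 between 18 and 8 dpp and 8 to 9 among the 6 ages. The cause of these differences was not tested. The direction of 2 members that passed no threshold turned. E2f7 between 18 and 8 dpp was at -0.08 with quantile normalization and between -0.01 and 0.26 without single mice, and Rb1 was at 0.15 with median-of-ratios scaling and between -0.10 and 0.07 without single mice. Without mouse 1 of 12 dpp or mouse 5 of 18 dpp Rb1 passed among the 6 ages (limma adjusted p = 0.0422 and 0.0351). E2f7 passed there with both scalings, with mice 1 to 3 alone, and without mouse 5 of 12 or of 16 dpp. Against the values used, median-of-ratios factors moved the median log2 difference of all genes between 18 and 8 dpp by 0.14 and quantile normalization by -0.17.

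The mouse numbers showed no clear pairing of the mice. Over 57 pairs of same-numbered mice at different ages, deviations from the age means correlated between -0.25 and 0.25, with 3 pairs over 0.1. The median was 0.01, against 0.00 between mice of different numbers. Of the 26 mice whose number recurs, 8 correlated best with a mouse of the same number. How many would do so without pairing was not determined. With the number as a replicate block, 0 members passed from 14 to 16 dpp (limma, E2f6 adjusted p = 0.0548), and the other counts stayed within 1.5 times the reported ones. This rests on the numbers 6 and 7 in the titles of 14 dpp, which recur at no other age. With these mice numbered 4 and 5 as in their descriptions, an alternative chosen after seeing the data, the replicate block gave 3 members from 14 to 16 dpp, and each count of changed members equalled the reported one. TPM gives no depth, so precision rests on 3 to 5 mice an age.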
